A study of Mus musculus with 18 samples.

Results

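P13.9 is a mouse fibroblast line that presented peptide to CD4+ T cells, and its 3 libraries are set here against the 3 libraries of T cells that it had stimulated for 4 days at the highest peptide dose, 10 µM. The members are these 6 of the 18 libraries, chosen by the group in the sample titles, with all 15698 named genes of the deposited table, of which 6016 passed a filter on low values and were tested. The P13.9 libraries come from the line alone. The T cells carried the transgenic 5CC7 receptor, came from spleen and lymph node, and were cultured with P13.9 cells loaded with the peptide pPCC. Naive CD4+ T cells and cultures at 0.01, 0.1 and 1.0 µM, with 3 libraries each, are used below as context only. The labels give no strain, age or sex, and they name neither introduced genes in P13.9 nor a step that separated T cells from it. Nor do they tell if replicates are separate cultures or animals, and a p-value here measures the spread between replicates only, which may be technical. P13.9 is 1 cell line and stands for no other fibroblast.

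Fibroblasts are adherent cells that build and remodel extracellular matrix, hold on to it through integrins and contractile actin bundles, and sense its stiffness through the YAP and TEAD factors. Activated CD4+ T cells grow in suspension, signal through the T cell receptor complex, and run a leukocyte form of the actin machinery. T cell blasts also divide fast and take up much glucose. A line used to present antigen has to offer peptide on MHC class II together with ligands for T cells, which ordinary fibroblasts show little of at rest.

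Reads in named genes, recovered from the steps in the normalized values, ran from 201627 to 352001 in P13.9 and from 372851 to 659715 in 10 µM T cells. The labels state a depth many times these totals, and why they differ is not known, so read counts and counting intervals refer to the reads behind the deposited values. A single read gave a normalized value between 0.442 and 0.767 in P13.9 libraries and between 0.192 and 0.343 in those of 10 µM T cells. Replicates correlated over genes at 0.924 to 0.943 in P13.9 and at 0.956 to 0.968 in 10 µM T cells on the log2 scale. All levels below are normalized values, given per library or as mean ± SD with n = 3 per group, and a log2 change is P13.9 minus 10 µM T cells on the log2(value + 1) scale, ± its standard error. A gene was called at a limma adjusted p below 0.05.

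The libraries matched their labels at most, but not all, defining markers. The 11 fibroblast markers in the table summed to 597 to 680 in the P13.9 libraries and to 10.5 to 16.8 in the 10 µM T cell libraries. Col1a2, one of the chains of type I collagen, had 47.6, 52.1 and 54.4 in P13.9, against 0.282, 0.685 and 0.575 in 10 µM T cells. Its partner chain Col1a1 had only 2 reads in the 3 P13.9 libraries together and 1 read in 10 µM T cells, and the matrix proteoglycan Bgn had 1 read in P13.9 and 0 in 10 µM T cells. The receptor Pdgfra was at 98 reads in P13.9 and 0 in 10 µM T cells, and Pdgfrb at 28 reads in P13.9 and 0 in 10 µM T cells. The 8 CD4 T cell markers summed to 8.40 to 19.4 in P13.9 and to 726 to 866 in 10 µM T cells, with Cd3e at 0 reads in P13.9. Myeloid markers summed to 3.07 to 6.02 in P13.9 and 1.34 to 3.11 in 10 µM T cells, while a wider myeloid list with 13 genes in the table summed to 96.3 to 123 in P13.9 and 34.2 to 35.3 in 10 µM T cells. Its 1 tested gene, the cathepsin inhibitor Cst3 that many cell types secrete, averaged 102 ± 16 in P13.9 and 25.4 ± 0.771 in 10 µM T cells, a change of 1.95 ± 0.15. The 1 B cell marker in the table, Ighm, had 1 read in P13.9 and 189 reads in 10 µM T cells.

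**Figure D1:**
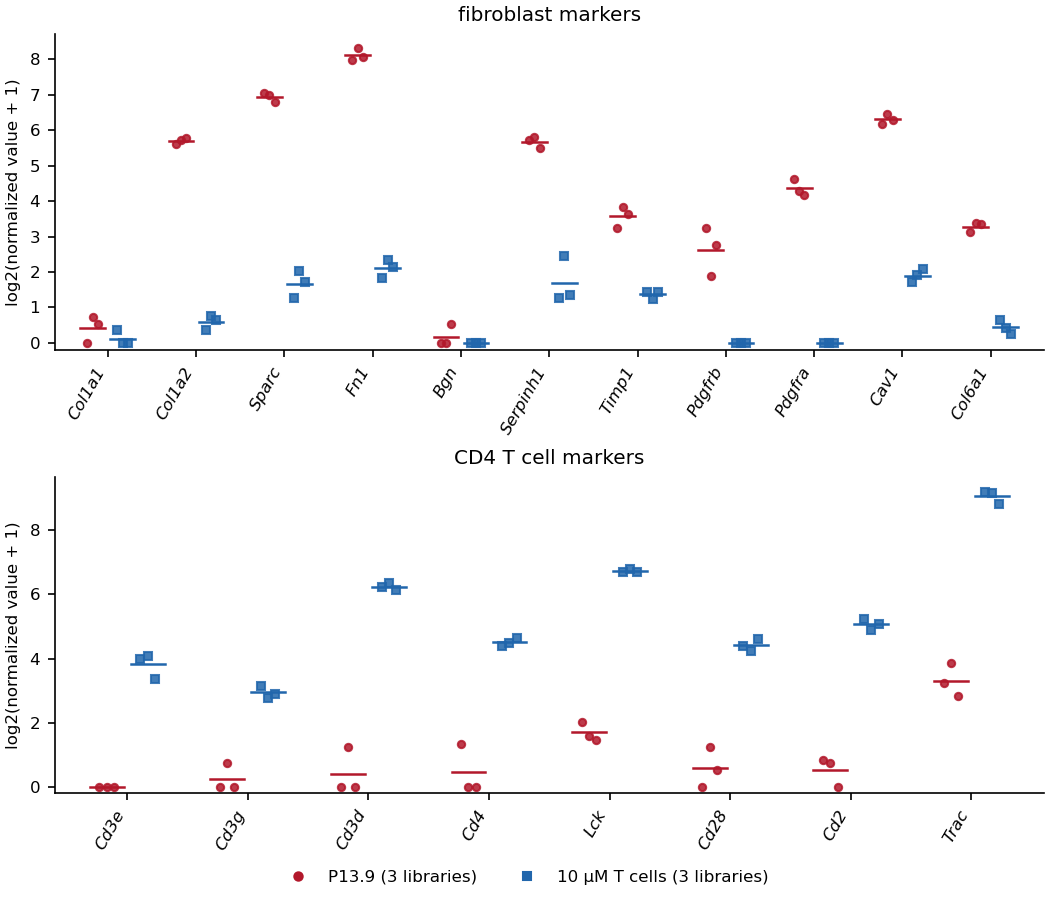
Fibroblast and CD4 T cell markers by library. The vertical axis is log2(normalized value + 1), each point is 1 library, and the bars are group means, with P13.9 to the left of 10 µM T cells. Col1a2, Sparc, Fn1 and Cav1 were high in all 3 P13.9 libraries, while Col1a1 and Bgn were near 0 in both groups.

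Each group held low levels of transcripts that mark the other. The P13.9 share in the 10 µM T cell libraries, taken as the median ratio to the P13.9 mean over 5 fibroblast markers, was 1.15% to 2.51%, and over 74 genes with no read in naive cells it was 2.43% to 3.35%. Naive libraries gave 0% to 4.96% over the same 5 markers, so the marker share at 10 µM did not stand above theirs. Over the 74 genes the naive share is 0 by the way they were chosen. As a median ratio over 6 T cell markers, 0.572% to 1.97% of the 10 µM T cell level was found in the P13.9 libraries. The P13.9 share in cultures at 0.01 µM was 25.1% to 45.9% by the markers and 20.2% to 25.6% by the 74 genes. Among the 972 genes that were at least 4-fold higher in P13.9, 340 had a 10 µM T cell level at or under 3.35% of their P13.9 level. Among the 392 that were at least 4-fold lower, 137 had a P13.9 level at or under 1.97% of their 10 µM T cell level. Subtracting the P13.9 share from the 10 µM T cell libraries left 4152 or 4163 genes called, by the first or the second estimate, against 4156 without it. It raised single changes much more, since little of the 10 µM T cell level was left. The change of Gpnmb became 9.15 or 9.65 in place of 5.78, that of Cd63 6.88 or 8.86 in place of 5.22, that of Ctsl 7.17 or 7.58 in place of 5.30 and that of Gdf15 6.69 or 7.36 in place of 5.17. In bulk libraries, fewer cells of a type and less RNA per cell cannot be told apart.

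Most genes differed. Of the 6016 tested genes, 4156 were called, which is 69.1%, with 2602 higher in P13.9 (43.3%) and 1554 lower (25.8%). At 4-fold or more, 1364 genes (22.7%) were called, 972 of them higher (16.2%) and 392 lower (6.52%). The values of the groups did not overlap for 4341 genes (72.2%). At the other end, the 95% interval of the change lay wholly within 2-fold for 1658 genes (27.6%), of which 251 were also called, and 453 genes were neither called nor shown to lie within 2-fold. To be tested, a gene had to reach 5 in 3 or more of the 6 libraries, so the 1309 genes that reached 5 in no 10 µM T cell library and the 534 that reached it in no P13.9 library had to differ. Counts of higher and lower genes in the lists below are to be read against the 43.3% and 25.8% of all tested genes. Counts within 2-fold are to be read against the 27.6%. The counts of higher and lower genes hang on the scaling. With the authors' scaling the median change of all tested genes was 0.30, and the summed values were 154647 to 156935 in P13.9 libraries and 126369 to 128318 in 10 µM T cell libraries. With TMM scaling the median was -0.02, and 49.9% of calls were higher, against 62.6% with the authors' scaling. The share was 49.2% after quantile normalization, 50.4% in edgeR and 51.9% in DESeq2. Under TMM, 3641 of the calls were made again in the same direction, none in the opposite one, and the 515 that were lost were all higher in P13.9. Changes below are therefore best read against 0.30, and small ones near it are given with their TMM value.

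The rises described first are among the 15 largest where the mean over the 6 libraries reached 50 and the groups did not overlap. Fn1, which encodes the matrix glycoprotein fibronectin, had 252, 316 and 265 in P13.9, against 2.54, 4.11 and 3.45 in 10 µM T cells, a log2 change of 6.0 ± 0.17 (adjusted p = 9.17e-12). Gpnmb, a lysosomal and melanosomal transmembrane glycoprotein, had 806, 822 and 773 in P13.9, against 11, 16.8 and 13.4 in 10 µM T cells, a log2 change of 5.78 ± 0.15 (adjusted p = 7.46e-12). App, the amyloid precursor protein, averaged 128 ± 11.5 in P13.9 and 1.17 ± 0.160 in 10 µM T cells. That the groups stood far apart for all 3 genes follows from the rule that picked them. The 10 µM T cell level of Fn1 was 1.21% of the P13.9 level, that of Gpnmb 1.72% and that of App 0.912%, all under the highest P13.9 share of those libraries, though Fn1 is also among the 5 markers behind that share. Gdf15, a secreted stress cytokine, averaged 198 ± 4.76 in P13.9 and 4.68 ± 1.62 in 10 µM T cells. The falls come from the 15 largest under the same limits. Laptm5, a lysosomal membrane protein of blood cells, had 0, 1.34 and 0.884 in P13.9, against 180, 162 and 154 in 10 µM T cells, a log2 change of -6.66 ± 0.27 (adjusted p = 2.46e-10). Thy1, the glycoprotein Thy-1, is found on T cells and on many fibroblasts, and it averaged 1.99 ± 0.602 in P13.9 and 132 ± 16.2 in 10 µM T cells. Igfbp4, a secreted binding protein for insulin-like growth factors, went the same way, with 1.48 ± 1.36 in P13.9 and 127 ± 3.05 in 10 µM T cells.

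**Figure D2:**
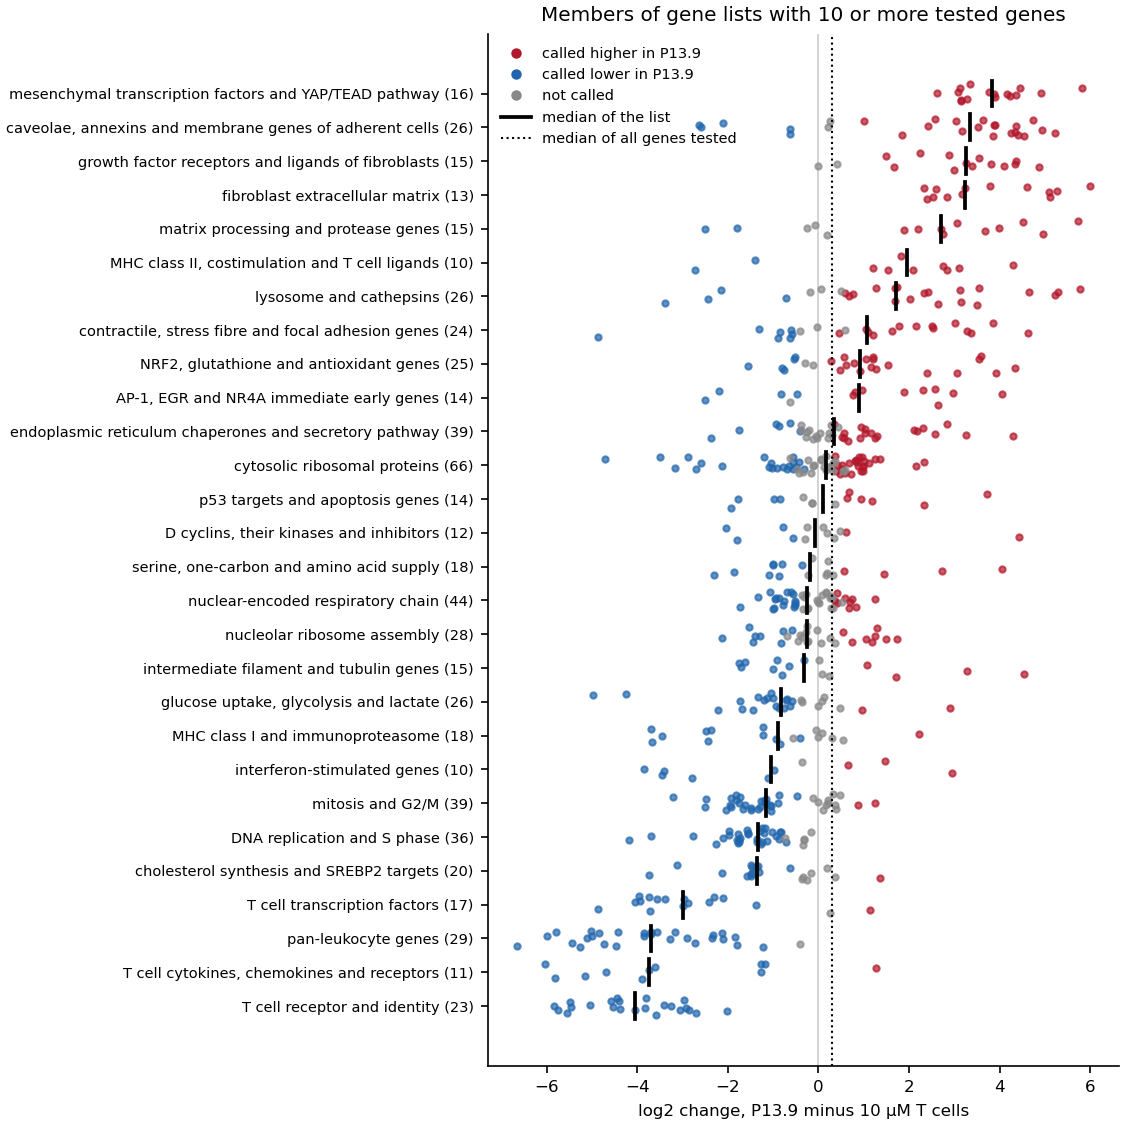
Log2 change of each tested member of the gene lists with 10 or more tested members, numbers of members in brackets, ordered by the median. Red points were called higher in P13.9, blue points lower and grey points were not called, with the list median as a thick bar and the median of all tested genes, 0.30, as a dotted line. Lists of matrix, membrane and mesenchymal genes lie to the right, leukocyte and T cell lists to the left, and cell cycle, cholesterol and glycolysis lists lie left of the dotted line.

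Promoter windows of genes at both ends and of genes that stayed within 2-fold were searched for short motifs. The windows are 300 bases from RefSeq, build GRCm38.p6, from 250 before to 50 after the start of each transcript, and both strands were searched. Shares are of windows, and a gene can have several or none. Windows were found for 747 of the 972 genes at least 4-fold higher and 294 of the 392 at least 4-fold lower. They were found for 1296 of the 1658 genes within 2-fold and 4640 of the 6016 tested genes. The AP-1 motif TGANTCA was in 8.18% of 990 windows of genes at least 4-fold higher in P13.9, in 4.2% of 405 windows of genes at least 4-fold lower, in 5.06% of 1621 windows of genes within 2-fold, in 5.2% of 5957 windows of all tested genes and in 7.81% of all 32851 windows. The RUNX motif TGTGGT was in 11%, 19.8%, 10.9%, 12% and 16.8% of these windows, in the same order. The ETS motif CCGGAA was in 15.7%, 17.3%, 37.7%, 30.2% and 14.9%, and the TEAD motif GGAATG in 14.2%, 12.8%, 11.2%, 11.5% and 14.7%. The NF-Y motif CCAAT was in 34.4%, 29.9%, 38.2%, 36.8% and 37.4%. ETS and TEAD matches can share the letters GGAA. Against all tested genes, from which the classes are drawn, the share for ETS was lower in both changed classes and higher in genes within 2-fold, that for AP-1 was higher in genes higher in P13.9, and that for RUNX was higher in genes lower in P13.9. A match describes the letters and is not a site, and the shares carry no test. For each motif but NF-Y 1 window is printed as an example, with the motif in capitals. The examples were picked by size of change, or by narrow interval for the gene within 2-fold. Only genes that carry the motif and met further limits were open to the pick. The examples are therefore not the largest changes or the narrowest interval of their class. Ahnak, at 3.87, and Il2rg, at -5.00, changed less than Fn1 and Il2rb. Gpnmb lies at chr6:49036268-49036567 on the plus strand and has the AP-1 letters 8 bases after the start of the transcript. Ahnak lies at chr19:8989034-8989333 on the plus strand, with the TEAD letters read on the other strand. Il2rg lies at chrX:101268206-101268505 on the minus strand and holds the RUNX letters. Vim lies at chr2:13574061-13574360 on the plus strand, with the ETS letters read on the other strand.
Gpnmb: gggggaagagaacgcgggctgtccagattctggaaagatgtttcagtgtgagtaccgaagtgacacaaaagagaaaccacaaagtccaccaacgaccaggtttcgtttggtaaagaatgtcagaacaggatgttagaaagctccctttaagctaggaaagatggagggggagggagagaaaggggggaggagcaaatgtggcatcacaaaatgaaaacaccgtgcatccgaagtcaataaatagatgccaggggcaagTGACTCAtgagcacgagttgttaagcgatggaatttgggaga
Ahnak: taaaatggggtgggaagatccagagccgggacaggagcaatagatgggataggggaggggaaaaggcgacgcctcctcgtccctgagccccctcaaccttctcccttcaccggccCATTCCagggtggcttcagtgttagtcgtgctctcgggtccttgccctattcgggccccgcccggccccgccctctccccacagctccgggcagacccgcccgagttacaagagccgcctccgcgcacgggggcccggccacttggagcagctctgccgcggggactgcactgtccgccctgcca
Il2rg: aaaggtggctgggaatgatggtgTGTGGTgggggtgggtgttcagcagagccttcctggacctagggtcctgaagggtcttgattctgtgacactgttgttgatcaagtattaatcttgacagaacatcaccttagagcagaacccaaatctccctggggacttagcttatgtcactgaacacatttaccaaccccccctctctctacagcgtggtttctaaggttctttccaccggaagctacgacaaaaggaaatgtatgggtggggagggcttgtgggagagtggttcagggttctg
Vim: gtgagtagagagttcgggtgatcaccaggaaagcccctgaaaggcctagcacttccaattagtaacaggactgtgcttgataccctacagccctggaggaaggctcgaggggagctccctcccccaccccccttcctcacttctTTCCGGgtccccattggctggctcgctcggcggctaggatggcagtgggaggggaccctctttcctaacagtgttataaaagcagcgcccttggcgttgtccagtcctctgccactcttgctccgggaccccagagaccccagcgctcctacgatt

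Every matrix gene that was tested was higher in P13.9. Of 30 genes for components of the extracellular matrix, 22 were in the table and 13 were tested, and all 13 were called higher, but each of them reached 5 in no 10 µM T cell library and so had to differ. Their median change was 3.24, against 0.30 over all tested genes. Sparc, a collagen-binding matrix protein, had 132, 126 and 111 in P13.9, against 1.41, 3.08 and 2.30 in 10 µM T cells. Col6a3 and Col8a1, chains of type VI and type VIII collagen, averaged 37.8 ± 2.64 and 42.3 ± 0.420 in P13.9, against 0.622 ± 0.312 and 0.286 ± 0.287 in 10 µM T cells. The basement membrane chain Col4a1 averaged 16.3 ± 3.90 in P13.9 and 0.880 ± 0.134 in 10 µM T cells. Lum, a small proteoglycan of connective tissue, had 0 reads in P13.9 and 1 read in 10 µM T cells and was not tested. The libraries thus held collagen VI, VIII and IV chains and Col1a2, and next to no Col1a1, Bgn or Lum.

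Genes that process matrix were split. Of 15 tested members, 10 were higher in P13.9, 2 lower and 3 within 2-fold. All 12 called members reached 5 in only one of the groups and so had to differ. Timp2, an inhibitor of metalloproteinases, had 109, 143 and 138 in P13.9, against 0.565, 2.40 and 1.72 in 10 µM T cells. The membrane metalloproteinase Mmp14 averaged 60 ± 13.4 in P13.9 and 1.15 ± 0.992 in 10 µM T cells. Serpinh1, the collagen chaperone of the endoplasmic reticulum, averaged 50.3 ± 5.19 in P13.9 and 2.47 ± 1.72 in 10 µM T cells. The prolyl hydroxylase subunit P4ha2 and the protease inhibitor Serpine2 went the other way. Serpine2 had 0.767, 0.669 and 0.442 in P13.9, against 7.34, 8.56 and 8.62 in 10 µM T cells, 3 reads against 96.

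Membrane and caveolar genes of adherent cells were mostly higher in P13.9. Of 30 listed genes, 26 were in the table, and all 26 were tested. Of these, 19 were higher in P13.9, 5 lower and 2 within 2-fold, with a median change of 3.34. The filter fixed the direction of 11 that reached 5 only in P13.9 and 1 that did so only in 10 µM T cells. Cavin1 and Cav1, which form caveolae, averaged 174 ± 22.4 and 78.7 ± 7.83 in P13.9, against 4.86 ± 1.63 and 2.75 ± 0.499 in 10 µM T cells. The tetraspanin Cd63 had 572, 415 and 416 in P13.9, against 9.04, 14 and 11.7 in 10 µM T cells. S100a4, a calcium-binding protein often used to mark fibroblasts, was also present in T cells and averaged 209 ± 34.9 in P13.9 and 13.3 ± 1.59 in 10 µM T cells. Family members did not move together. Anxa1 was higher in P13.9, with 40.5 ± 6.51 in P13.9 and 2.51 ± 1.5 in 10 µM T cells, Anxa2 was within 2-fold at a change of 0.25 ± 0.15, and Anxa6 was lower at -2.59 ± 0.13 (adjusted p = 1.4e-09). The same split was seen between Emp1, a membrane protein of epithelial and mesenchymal cells, at 4.54 ± 0.27, and its relative Emp3 at -2.12 ± 0.18.

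The mesenchymal and YAP/TEAD list had no member lower in P13.9. Of 26 members in the table, 16 were tested and all 16 were higher, but all had to differ by the filter, since none reached 5 in any 10 µM T cell library. Hmga2, a chromatin protein of embryonic and transformed cells, had 77.5, 56.8 and 66.3 in P13.9, against 0, 0.685 and 0 in 10 µM T cells, 336 reads against 2, which is a ratio of 388 with an exact 95% counting interval of 106 to 3214. Yap1, the coactivator of TEAD factors, had 36.8, 30.8 and 37.6 in P13.9, against 0.282, 0.343 and 0 in 10 µM T cells. The homeobox factor Prrx1 and the YAP partner Amotl2 had 64 and 70 reads in P13.9 and 0 in 10 µM T cells, which puts them at least 49.2-fold and at least 53.8-fold higher with a floor of 3 reads over the group. Twist2 averaged 44.2 ± 9.02 in P13.9 and 1.21 ± 0.586 in 10 µM T cells, while its close relative Twist1 had 0 reads in P13.9 and 1 read in 10 µM T cells. The YAP targets Ankrd1 and Ccn1 were both higher at 3.90 ± 0.31 and 3.34 ± 0.28, whereas Ccn2 had 3 reads in P13.9 and 5 in 10 µM T cells and was not tested.

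Of 15 tested growth factor and receptor genes, 13 were higher in P13.9, 11 of which had to be by the filter, and 2 were within 2-fold. Csf1, the macrophage colony-stimulating factor, had 81.3, 110 and 82.2 in P13.9, against 7.06, 5.48 and 4.41 in 10 µM T cells. The receptor Fgfr1 averaged 47.6 ± 6.04 in P13.9 and 0.686 ± 0.417 in 10 µM T cells. Tgfbr2, a receptor for TGF-β that both cell types use, averaged 10.1 ± 3.63 in P13.9 and 9.71 ± 0.788 in 10 µM T cells, an interval of -0.59 to 0.58. All 6 tested fibroblast cytokine and chemokine genes were higher, 4 of which had to be by the filter. The monocyte attractant Ccl2 had 95.1, 104 and 103 in P13.9, against 9.89, 11.6 and 6.90 in 10 µM T cells. Its 10 µM T cell level was 9.41% of the P13.9 level, above the P13.9 share of 2.43% to 3.35%. Cxcl1, which attracts neutrophils, averaged 52.9 ± 7.69 in P13.9 and 8.15 ± 0.0940 in 10 µM T cells, which is 15.4% of the P13.9 level.

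T cell identity genes were lower in P13.9 in every tested case. All 23 tested members of the receptor and identity list were lower, by a median of -4.06, and 21 of them had to differ since no P13.9 library reached 5. Trac, the constant region of the receptor α chain, had 8.44, 13.4 and 6.19 in P13.9, against 590, 575 and 456 in 10 µM T cells, a log2 change of -5.76 ± 0.21 (adjusted p = 7.34e-11). Its P13.9 level was 1.73% of the 10 µM T cell level, inside the T cell share of 0.572% to 1.97%, though Trac is itself among the 6 markers behind that share. Lck, the kinase that starts receptor signalling, had 3.07, 2.01 and 1.77 in P13.9, against 102, 111 and 103 in 10 µM T cells. Cd3d had 2 reads in P13.9 and 865 in 10 µM T cells, a ratio of 187 in favour of 10 µM T cells with an interval of 51.7 to 1550. The interleukin 2 receptor chains Il2ra, Il2rb and Il2rg averaged 0.881 ± 0.576, 2.33 ± 1.63 and 0.963 ± 1.01 in P13.9, against 64.1 ± 5.89, 172 ± 12.7 and 56.2 ± 2.82 in 10 µM T cells. The chemokine receptors Ccr7 and Cxcr3 had 0 reads in P13.9, which puts them at least 43.5-fold and at least 23.5-fold lower there.

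Among 17 tested T cell transcription factors, 15 were lower in P13.9, 1 higher and 1 within 2-fold, and 13 reached 5 only in 10 µM T cells and 1 only in P13.9, so these had to differ. Gata3 averaged 2.21 ± 0.984 in P13.9 and 36.3 ± 4.30 in 10 µM T cells. Tbx21, which encodes T-bet, had 0, 0.669 and 0 in P13.9, against 17.2, 19.2 and 16.1 in 10 µM T cells, 1 read against 201. Ikzf1, which encodes Ikaros, had 2 reads in P13.9 and 461 in 10 µM T cells. The 2 tested RUNX genes went opposite ways. Runx3 had 1 read in P13.9 and 221 in 10 µM T cells, whereas Runx1 had 6.90, 12.7 and 11 in P13.9, against 2.54, 4.80 and 4.98 in 10 µM T cells, a log2 change of 1.14 ± 0.30 (adjusted p = 0.00419) that was 0.66 after quantile normalization (adjusted p = 0.0604). Stat5a averaged 9.96 ± 3.45 in P13.9 and 7.98 ± 1.87 in 10 µM T cells and lay within 2-fold. Of the T cell cytokine list, 10 of 11 tested genes were lower and Ccl4 was higher at 1.26 ± 0.24, with 6.90, 6.69 and 6.63 in P13.9 and 2.54, 2.06 and 2.11 in 10 µM T cells. After quantile normalization its adjusted p was 0.0588. Of these 11 genes, 7 reached 5 only in 10 µM T cells and 1 only in P13.9, so these had to differ. Among granule genes, Gzmb was lower in P13.9 at -2.65 ± 0.29 and the granzyme inhibitors Serpinb9 and Serpinb6b were higher at 1.60 ± 0.25 and 1.68 ± 0.31.

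Of 29 tested pan-leukocyte genes, 28 were lower in P13.9 and 23 of them had to differ by the filter. The exception was Srgn, the core protein of granule proteoglycans, with 29.1, 44.1 and 27.4 in P13.9, against 50, 41.1 and 40.2 in 10 µM T cells. Its interval of -0.80 to 0.00 lies within 2-fold, and under TMM it was lower at -0.74 (adjusted p = 0.00227). Cd53, a tetraspanin of leukocytes, was lower at -1.85 ± 0.16, but at 16.1, 19.4 and 19.4 in P13.9, against 74.6, 71.6 and 59.4 in 10 µM T cells, its P13.9 level was 26.7% of the 10 µM T cell level. That lies above the T cell share of the P13.9 libraries, as did the integrin chain Itgal at 8.55 ± 2.49 in P13.9 and 46.6 ± 4.58 in 10 µM T cells.

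Pairs of related genes, one listed here for adherent cells and one for leukocytes, often differed in opposite directions. The listing does not mean that T cells lack the first member. Of 24 tested genes listed for adherent cells, 14 were higher in P13.9, 7 lower and 3 not called. Of 35 pairs, 24 had both members tested. In 13 of these 24, the member listed for adherent cells was higher and the leukocyte member lower in P13.9. In 5 pairs both members were lower, in 2 the leukocyte member was lower and the other was not called, and in 4 the leukocyte member was not lower. The gap between the 2 changes was widest for the actin-bundling plastins, with Pls3 at 4.07 ± 0.20 and Lcp1 at -5.11 ± 0.18. Pls3 had 69.0, 59.5 and 67.6 in P13.9, against 2.26, 3.08 and 3.64 in 10 µM T cells. Lcp1 had 2.30, 3.34 and 2.21 in P13.9, against 125, 130 and 114 in 10 µM T cells. The kindlins, which activate integrins, had 94 reads of Fermt2 in P13.9 and 3 in 10 µM T cells, and 2 reads of Fermt3 in P13.9 and 402 in 10 µM T cells. The WAVE complex subunits Nckap1 and Nckap1l, the parvins Parva and Parvg, and the nucleation promoters Wasl and Was split the same way. Parvg had 0 reads in P13.9, which puts it at least 40.2-fold lower there with a floor of 3 reads over the group. Pls3 and Fermt2 reached 5 in no 10 µM T cell library, and Lcp1, Fermt3 and Parvg in no P13.9 library, so these had to differ by the filter. How many other pair members had to differ was not counted, so the number of split pairs is a description only.

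**Figure D3:**
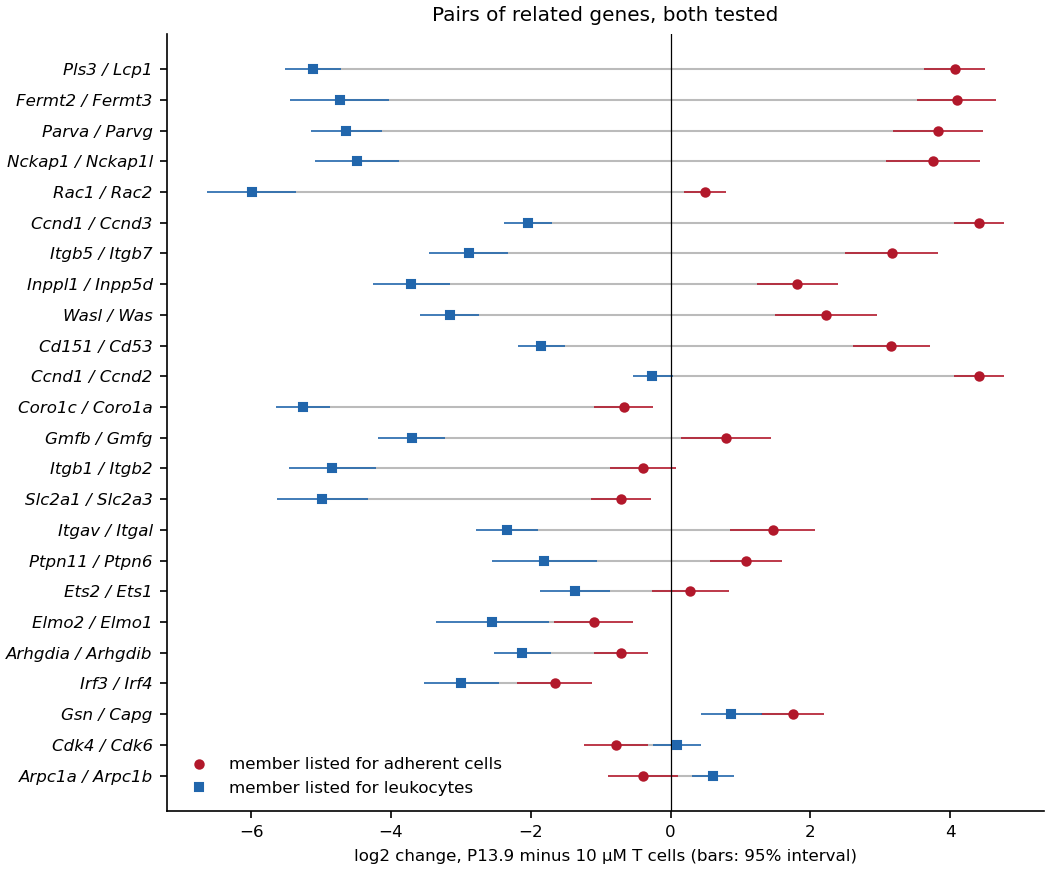
Log2 change of both members of 24 pairs of related genes, with 95% intervals. Red circles are members listed for adherent cells and blue squares members listed for leukocytes. In most pairs the circle lies right of 0 and the square left of it, while for Gsn and Capg both lie right and for Coro1c and Coro1a both left. Changes of members with 3 or fewer reads in a group depend on the value of 1 added before the logarithm.

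Other pairs did not split, or only with one scaling. Rac1, a small GTPase that steers the actin skeleton, averaged 87.3 ± 10.6 in P13.9 and 61.7 ± 4.96 in 10 µM T cells, a change of 0.49 ± 0.14 that became 0.14 under TMM (adjusted p = 0.363), while Rac2 had 3 reads in P13.9 and 1178 in 10 µM T cells. The integrin chain Itgb1 was not called at -0.39 ± 0.22, but was under TMM at -0.72 (adjusted p = 0.00981), and Itgb2 had 1 read in P13.9 and 386 in 10 µM T cells. Coro1c and Coro1a, Slc2a1 and Slc2a3, and Irf3 and Irf4 were all lower in P13.9. Capg, a gelsolin relative listed for leukocytes, was higher in P13.9 at 0.87 ± 0.20 together with Gsn at 1.75 ± 0.21, although DESeq2 (adjusted p = 0.0641) and the fit to all 18 libraries (adjusted p = 0.202) did not call Capg.

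The contractile and focal adhesion list was mixed. Of 24 tested members, 14 were higher in P13.9 (58.3%, against 43.3% of all tested genes). A further 7 were lower (29.2%, against 25.8%), and 4 had their interval within 2-fold (16.7%, against 27.6%). The share that was lower was thus near that of all tested genes. The median was 1.08, and 8 members reached 5 only in P13.9 and 1 only in 10 µM T cells. Cald1, which binds actin and tropomyosin, averaged 65.7 ± 6.28 in P13.9 and 1.8 ± 0.896 in 10 µM T cells, and the actin cross-linker Actn1 averaged 53.3 ± 8.57 in P13.9 and 11.1 ± 1.54 in 10 µM T cells. Acta2, the smooth muscle actin of contractile fibroblasts, had 1 read in P13.9 and 3 in 10 µM T cells. Flna, another actin cross-linker, averaged 45.7 ± 7.96 in P13.9 and 46.4 ± 2.55 in 10 µM T cells. The adaptor Pdlim1 was lower, with 1 read in P13.9 and 373 in 10 µM T cells. Among filament genes, Vim, the mesenchymal filament protein vimentin, had 295, 318 and 275 in P13.9, against 298, 274 and 272 in 10 µM T cells, and its interval of -0.18 to 0.32 lies within 2-fold, although under TMM it was lower at -0.28 (adjusted p = 0.0406). Lmna and Lmnb1, the nuclear lamins, went opposite ways at 4.53 ± 0.23 and -1.71 ± 0.15. Actb, the main cytoplasmic actin, averaged 365 ± 32.0 in P13.9 and 1044 ± 67.4 in 10 µM T cells, and Actg1 had 3 reads in P13.9 and 38 in 10 µM T cells. Both have near-identical copies, so their counts are uncertain.

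P13.9 had reads of both chains of the class II molecule I-E and none of H2-Aa or H2-Ab1, and several ligands for T cells were higher there. Of 21 class II, costimulatory and ligand genes in the table, 10 were tested, 8 of them higher in P13.9 and 2 lower. Of the 10, 7 reached 5 only in P13.9 and 1 only in 10 µM T cells, so these had to differ. H2-Eb1, the β chain of the class II molecule I-E, had 9.20, 17.4 and 13.3 in P13.9, against 0.847, 2.40 and 0.383 in 10 µM T cells, a log2 change of 2.76 ± 0.34 (adjusted p = 5.47e-06). H2-Ea, its α chain, had 16 reads in P13.9 and 1 in 10 µM T cells and fell below the filter. The chains of the other class II molecule, H2-Aa and H2-Ab1, had 0 reads in P13.9 and 6 and 9 reads in 10 µM T cells. The invariant chain Cd74 averaged 8.48 ± 0.848 in P13.9 and 3.13 ± 0.732 in 10 µM T cells. Of the peptide-loading pair, H2-DMb1 was higher at 4.30 ± 0.34 and H2-DMa lower at -1.41 ± 0.32. Cd80, a ligand of CD28, had 23, 24.1 and 13.7 in P13.9, against 1.13, 2.06 and 1.15 in 10 µM T cells. Icam1, the ligand of the integrin LFA-1, had 9.20, 14.7 and 15.5 in P13.9, against 3.95, 4.45 and 3.06 in 10 µM T cells, and its change was 1.53 ± 0.27 (adjusted p = 0.000189). With all 18 libraries in the fit, the adjusted p was 0.0583 for Icam1 and 0.225 for Cd74. The 4-1BB ligand Tnfsf9 and its receptor Tnfrsf9 were both higher in P13.9, at 2.84 ± 0.33 and 1.82 ± 0.21. Cd48, a leukocyte ligand, was lower at -2.73 ± 0.32.

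Class I presentation ran the other way. Of 18 tested genes, 11 were lower in P13.9, 1 higher and 5 within 2-fold, with a median of -0.89, and 2 reached 5 only in 10 µM T cells. The immunoproteasome subunit Psmb8 had 17.6, 12.0 and 12.4 in P13.9, against 178, 171 and 140 in 10 µM T cells, a log2 change of -3.46 ± 0.17 (adjusted p = 9.98e-10). Psmb9 averaged 6.62 ± 0.909 in P13.9 and 96.0 ± 2.58 in 10 µM T cells, and Psmb10 13.1 ± 4.39 in P13.9 and 72.2 ± 1.97 in 10 µM T cells. The peptide transporter genes Tap1 and Tap2 were lower at -2.49 ± 0.19 and -0.86 ± 0.15, that of Tap2 with an adjusted p of 0.38 when all 18 libraries were fitted. The class I heavy chain H2-K1 averaged 208 ± 28.0 in P13.9 and 395 ± 24.2 in 10 µM T cells, and the light chain B2m 594 ± 90.1 in P13.9 and 479 ± 44.2 in 10 µM T cells, within 2-fold. Class I genes are near copies of each other and differ between mouse strains, so their counts can be split or lost. Of 10 tested interferon-stimulated genes, 6 were lower and 3 higher, and 2 reached 5 only in 10 µM T cells. Among the higher ones, the membrane protein Ifitm3 averaged 99.3 ± 7.56 in P13.9 and 12.0 ± 0.902 in 10 µM T cells.

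**Figure D4:**
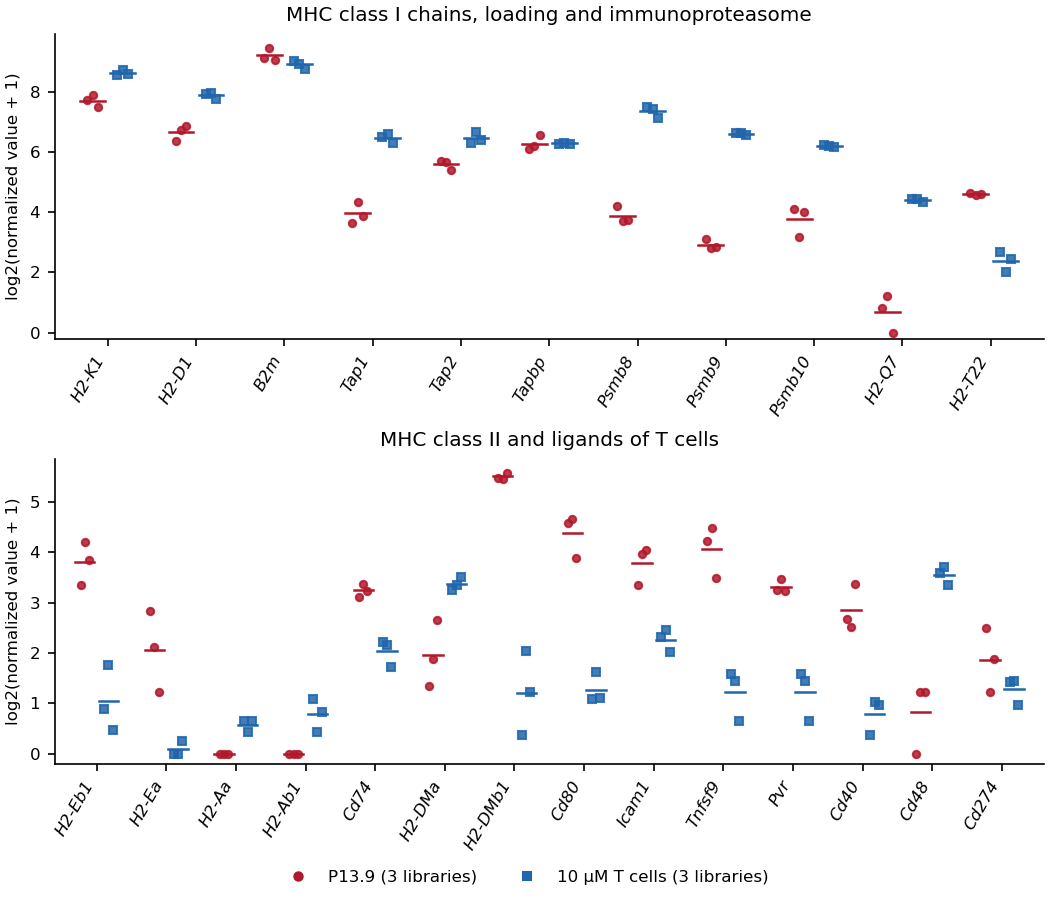
Class I genes (top) and class II and ligand genes (bottom) by library. The vertical axis is log2(normalized value + 1), points are libraries and bars group means, with P13.9 to the left of 10 µM T cells. The immunoproteasome genes Psmb8, Psmb9 and Psmb10 are low in P13.9, and H2-Eb1, H2-DMb1 and Cd80 are high there, while H2-Aa and H2-Ab1 have no read in P13.9.

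Both populations expressed division genes, but at unequal levels. Of 36 tested replication and S phase genes, 31 were lower in P13.9, 4 within 2-fold and none higher, with a median of -1.33 (-1.65 under TMM), and 5 of those lower had to be by the filter. The nuclear DNA ligase Lig1 had 9.97, 8.02 and 7.95 in P13.9, against 123, 129 and 123 in 10 µM T cells, a log2 change of -3.71 ± 0.15 (adjusted p = 2.46e-10). Tk1, the cytosolic thymidine kinase, had 0, 0.669 and 0.442 in P13.9, against 19.5, 23.3 and 27.6 in 10 µM T cells, 2 reads against 281, a ratio of 60.9 in favour of 10 µM T cells with an interval of 16.7 to 505. Mcm5 and Tyms differed less. The helicase subunit Mcm5 averaged 25.0 ± 1.73 in P13.9 and 101 ± 3.30 in 10 µM T cells, and the thymidylate synthase Tyms 12.6 ± 3.14 in P13.9 and 20.9 ± 2.71 in 10 µM T cells. Without 10 µM T cell replicate A, Tyms was no longer called (adjusted p = 0.0557). Cdt1, which loads the helicase, averaged 45.2 ± 7.20 in P13.9 and 56.4 ± 4.31 in 10 µM T cells and lay within 2-fold.

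Of 39 tested mitosis genes, 27 were lower in P13.9, 9 within 2-fold and 2 higher, with a median of -1.17. Birc5, the chromosomal passenger survivin, averaged 38.2 ± 9.03 in P13.9 and 149 ± 8.78 in 10 µM T cells. The proliferation antigen gene Mki67 averaged 5.86 ± 1.32 in P13.9 and 5.85 ± 1.23 in 10 µM T cells, an interval of -0.58 to 0.58. Anln, an actin-binding protein of the cleavage furrow, was higher at 1.24 ± 0.24. The D cyclins, which start the cycle in response to growth factors, each took a different course. Ccnd1 had 95.9, 118 and 107 in P13.9, against 3.95, 4.11 and 4.02 in 10 µM T cells, a log2 change of 4.42 ± 0.17 (adjusted p = 1.19e-10). Ccnd2 had 70.6, 78.9 and 87.5 in P13.9, against 88.7, 90.4 and 104 in 10 µM T cells, within 2-fold, and under TMM it was lower at -0.60. Ccnd3 had 24.5, 32.8 and 39.3 in P13.9, against 130, 138 and 131 in 10 µM T cells, a log2 change of -2.04 ± 0.16 (adjusted p = 5.53e-08). Of the partner kinases, Cdk4 was lower at -0.78 ± 0.21 (adjusted p = 0.181 with all 18 libraries in the fit) and Cdk6 within 2-fold at 0.09 ± 0.16. Cdkn2a, whose products restrain division in cultured fibroblasts, had 0 reads in P13.9 and 2 in 10 µM T cells.

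Genes of glycolysis and cholesterol synthesis were mostly lower in P13.9. Of 26 tested genes of glucose uptake and glycolysis, 18 were lower, 2 higher and 7 within 2-fold, with a median of -0.82, and 3 reached 5 only in 10 µM T cells and 1 only in P13.9. The transporter Slc2a3 had 0, 1.34 and 0.442 in P13.9, against 42.6, 49.7 and 46.9 in 10 µM T cells, 3 reads against 541, a ratio of 78.2 in favour of 10 µM T cells with an interval of 26.6 to 380. Slc2a1 was lower by much less, at -0.71 ± 0.20. The lactate exporter Slc16a3 had 2 reads in P13.9 and 292 in 10 µM T cells, while its relative Slc16a1 averaged 13 ± 1.94 in P13.9 and 9.10 ± 1.41 in 10 µM T cells and lay within 2-fold. Ldha, lactate dehydrogenase, averaged 99.9 ± 8.05 in P13.9 and 337 ± 33.8 in 10 µM T cells. Of 20 tested cholesterol genes, 13 were lower, 6 within 2-fold and 1 higher, and 6 of those lower had to be by the filter. The sterol carrier Stard4 had 0 reads in P13.9, at least 21.1-fold lower, and the regulator Srebf2 averaged 35.8 ± 3.14 in P13.9 and 91.5 ± 12.9 in 10 µM T cells. Among serine and one-carbon genes, Psph and Shmt2 were lower at -2.31 ± 0.22 and -1.87 ± 0.26, whereas Aldh1l2, a mitochondrial folate enzyme, was higher at 4.06 ± 0.27 and averaged 27.7 ± 1.62 in P13.9 and 0.756 ± 0.412 in 10 µM T cells.

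**Figure D5:**
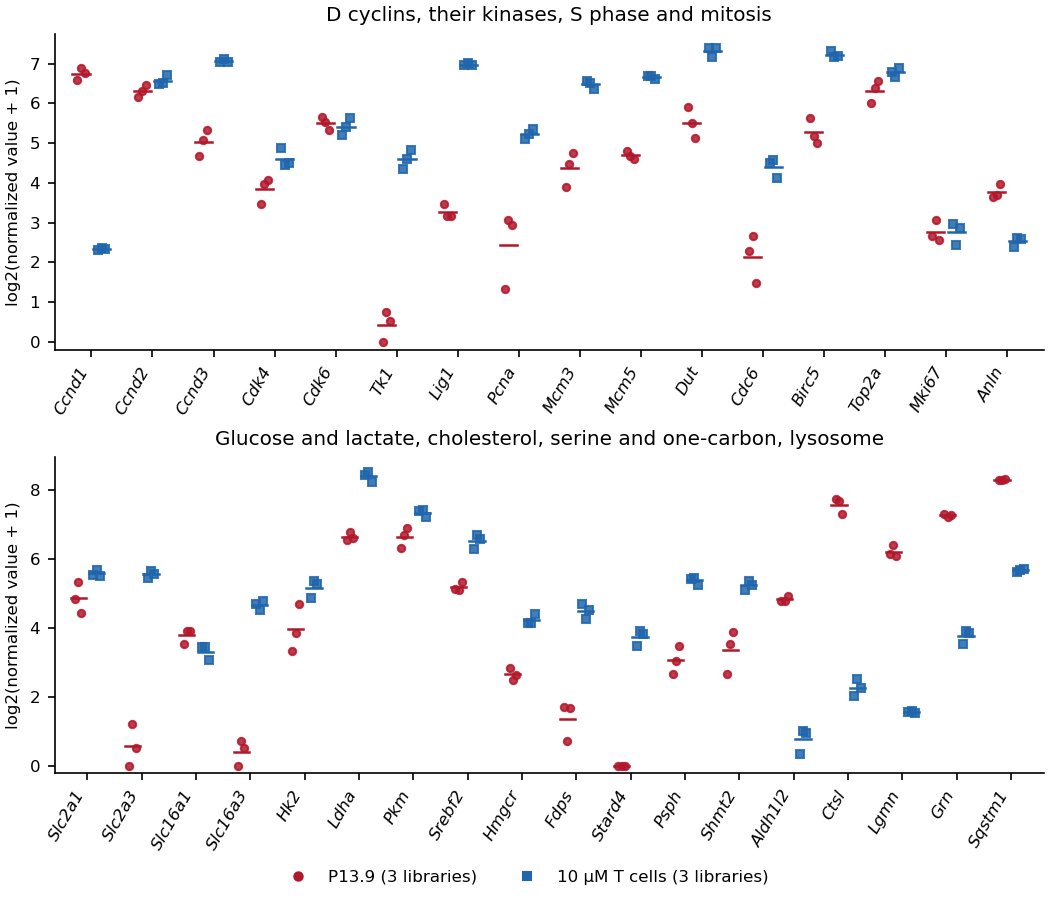
Division genes (top) and metabolic and lysosomal genes (bottom) by library. The vertical axis is log2(normalized value + 1), points are libraries and bars group means, with P13.9 to the left of 10 µM T cells. Ccnd1 is high and Ccnd3 low in P13.9, Mki67 is level, Slc2a3 and Slc16a3 are near 0 in P13.9, and Ctsl and Lgmn are low in 10 µM T cells.

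Lysosome genes were mostly higher in P13.9. Of 26 tested, 19 were higher, 4 lower and 2 within 2-fold, with a median of 1.72, and 6 reached 5 only in P13.9 and 3 only in 10 µM T cells. Ctsl, a cathepsin of most tissues, had 212, 206 and 158 in P13.9, against 3.11, 4.80 and 3.83 in 10 µM T cells, a log2 change of 5.30 ± 0.18 (adjusted p = 5.17e-11). Ctss, the cathepsin of professional presenting cells, had 0 reads in P13.9 and 124 in 10 µM T cells, at least 17.9-fold lower. Grn, the precursor of granulins, averaged 154 ± 5.18 in P13.9 and 12.8 ± 1.8 in 10 µM T cells. Sqstm1, the autophagy receptor p62, had 311, 315 and 319 in P13.9, against 48.3, 50.7 and 51.5 in 10 µM T cells, with replicates close together on both sides. Npc2, a sterol carrier of the lysosome, averaged 137 ± 28.8 in P13.9 and 131 ± 7.59 in 10 µM T cells, within 2-fold. Of 25 tested antioxidant genes, 18 were higher in P13.9 (72.0%, against 43.3% of all tested genes), 6 of which had to be by the filter, and 5 lower. Under TMM 14 were higher and 6 lower, and 1 called member changed sign under a scaling. Nfe2l2, the gene of their regulator NRF2, is not in the list and averaged 65.6 ± 11.1 in P13.9 and 5.57 ± 0.405 in 10 µM T cells. The peroxidase Prdx2 was lower at -1.56 ± 0.20 and the heme oxygenase Hmox1 averaged 10.6 ± 5.02 in P13.9 and 10.9 ± 0.493 in 10 µM T cells.

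Of 14 tested AP-1 and immediate early genes, 9 were higher in P13.9 (64.3%, against 43.3% of all tested genes) and 4 lower (28.6%, against 25.8%). Of these genes, 3 reached 5 only in P13.9 and 1 only in 10 µM T cells. Fosl1 averaged 22.4 ± 2.91 in P13.9 and 0.470 ± 0.519 in 10 µM T cells, Jun 28.0 ± 6.42 in P13.9 and 2.70 ± 0.681 in 10 µM T cells, and Junb 90.6 ± 5.54 in P13.9 and 162 ± 8.14 in 10 µM T cells. These genes encode subunits of the factor whose letters are in capitals in the Gpnmb window above, and whether the factor is bound there was not measured.

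Many genes of basic machinery lay within 2-fold. Of 44 tested genes of the respiratory chain, 26 lay within 2-fold, or 59.1% against 27.6% of all tested genes, with 17 lower and 9 higher, and under TMM 24 lower and 3 higher. The interval lay within 2-fold for 29 of 66 ribosomal protein genes (43.9%) and for 20 of 39 genes of the endoplasmic reticulum (51.3%). Genes with higher values lay within 2-fold more often in general, with 577 of 1453 when only genes with a mean of at least 20 were fitted. The shares of these lists were not compared with genes of like level. Within the last list, Hspa5, the chaperone BiP, was higher at 264 ± 2.45 in P13.9 and 107 ± 8.36 in 10 µM T cells, Tmed9 averaged 175 ± 7.49 in P13.9 and 171 ± 14.6 in 10 µM T cells, and Sec13 was lower at -2.37 ± 0.28. The balance of calls in these lists moved with the scaling, since 25 ribosomal genes were higher and 21 lower with the authors' scaling, and 16 higher and 26 lower under TMM. Single ribosomal genes can be misread, since many have near-identical copies. Rps3a1 had 2 reads in P13.9 and 161 in 10 µM T cells while its copy Rps3a3 had 502 reads in P13.9 and 46 in 10 µM T cells. Rpl39l and Tmsb4x, at 5.30 ± 0.15 and -5.01 ± 0.16, are among the largest changes and have such copies too. Of 9 transcripts encoded by mitochondrial DNA, 7 were higher in P13.9 and 6 had intervals within 2-fold, but under TMM only 3 were higher and 2 were lower. The complex I subunit gene mt-Nd4 had 1628, 1395 and 1154 in P13.9, against 415, 388 and 456 in 10 µM T cells, and was higher under both scalings, at 1.72 ± 0.14 and 1.36.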

How the data were processed

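RNA was extracted with TRIzol and libraries made with the Lexogen QuantSeq 3′ kit, per the labels' protocols. The deposited signal values are gene counts that the authors divided by median-of-ratios size factors, per the file headers. Per the submitters' processing notes, the build was mm10 and the tools were STAR 2.6.1d, DESeq2 (no version), HTSeq 0.9.1 and FastQC 0.11.8. For annotation, strand setting and tool settings, the status is: not given in the sources used here. Reads were recovered from the steps of the values, and 99.9996% of 284544 values were whole within 0.001 reads. The 110 features without a gene name held 3.45% to 4.76% of P13.9 reads and 2.71% to 3.07% of 10 µM T cell reads and were left out.

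Genes with a value of 5 or more in 3 or more of the 6 libraries were fitted with limma 3.58.1 in R 4.3.3 (lmFit and eBayes with trend) on log2(value + 1), with Benjamini-Hochberg adjustment over all 6016. A gene lay within 2-fold where the 95% interval was inside -1 to 1 on the log2 scale. edgeR 4.0.16 with TMM called 4266 genes on the recovered reads and DESeq2 1.42.0 called 3681. Ratios of few reads carry exact 95% intervals, and these and the floor of 3 reads cover counting error only. The fit was also tested on simulated data in which few genes differed between groups. Most tested genes differed in the real data, so that test does not bear on the scaling or the filter.

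The comparison, the gene lists and the pairs were chosen with earlier results of these data known, and the pick among genes that the naming rule allows was made with their values in view. The rule allows the 15 largest called rises and falls where the mean over the 6 libraries reached 50 and groups did not overlap, predicted genes left out, and in each list the 5 smallest adjusted p-values, the 3 narrowest intervals within 2-fold and the members called against the list's direction, and all pair members, D cyclins, class II genes, sex chromosome genes and markers. Acta2, Actb, Actg1, Actn1, Ankrd1, Anxa1, Ccn1, Ccn2, Col4a1, H2-K1, Hmox1, Il2rg, Lum, Mki67, Nfe2l2, Rps3a3, Shmt2, Sqstm1, Tap2, Twist1 and Tyms fall outside it and were chosen after their values were seen. Some genes were not analysed here. Of the named features, 13863 matched a RefSeq symbol and 30 a synonym.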

Additional observations from a re-analysis of the deposited data

How the results depend on the processing

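The number of calls, 4156, moved to between 3681 and 4266 with 0.5 added before the logarithm, library weights, another scaling or another count test. Which genes were called moved more. Under TMM 3641 of the calls were made again, and 2087 genes were higher and 2094 lower, against 2602 and 1554 with the authors' scaling. With 5 added, 472 genes were called at 4-fold or more, 320 higher and 152 lower, and 2836 lay within 2-fold. With no filter on low values, 6721 were called, 4246 higher and 2475 lower, and 4781 lay within 2-fold, because more genes were tested. With a mean of at least 20, fewer were tested and 1091 were called, 599 higher and 492 lower, 253 of them at 4-fold or more, 164 higher and 89 lower, and 577 lay within 2-fold. The number of calls did fall with all 18 libraries in the fit, although the same 6016 genes were tested. In that fit 2986 genes were called, 1951 higher and 1035 lower, and 770 lay within 2-fold. Replicates correlated at 0.64 to 0.773 in the added naive libraries, which held 27789 to 97757 reads in named genes. In the added cultures at 0.01, 0.1 and 1.0 µM they correlated at 0.911 to 0.974. The cause of the fall was not tested. The P13.9 share of 10 µM T cell libraries averaged 2.76% over genes without a naive read and 1.84% over markers, while naive libraries averaged 3.21% over the markers. Leaving out 1 library at a time gave 3729 to 4135 calls, 2385 to 2598 higher and 1344 to 1540 lower, 1345 to 1388 at 4-fold or more, 956 to 988 higher and 389 to 410 lower, and 1292 to 1672 within 2-fold. No setting turned the direction of a called gene named here, and calls were lost for Capg, Ccl4, Cd74, Cdk4, Icam1, Rac1, Runx1, Tap2 and Tyms, as given beside them. Vim and Tmed9, not called with the authors' scaling, were lower both under TMM and in edgeR, by -0.28 for Vim and -0.31 for Tmed9, which follows from the shift of 0.31 between the scalings. The same shift brought Ccnd2, Cdt1, Flna, Itgb1 and Srgn past the threshold as lower. B2m was called higher without P13.9 replicate 1 (0.35) or 3 (0.38), with 5 added, with a mean of at least 20, with library weights and after either subtraction (0.30 to 0.35), Anxa2 (0.42) and Slc16a1 (0.59) without replicate 1, and Cdt1 (-0.45) and Srgn (-0.61) were called lower without replicate 2. No paired analysis was possible because the P13.9 columns carry numbers where the sample titles carry letters, so replicates could not be matched across groups.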

Other observations

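P13.9 also carried transcripts of body position genes and of a mast cell protease that the gene lists did not cover, and these genes were picked after their values were seen. Of 22 Hox genes in the table, which pattern the body axis, 11 were tested and 11 were higher in P13.9, all of which had to differ by the filter. The 22 genes summed to 218 to 230 in P13.9 libraries and to 2.87 to 6.50 in 10 µM T cell libraries, and all 4 clusters were represented, with 365 reads of Hoxa genes, 417 of Hoxb, 208 of Hoxc and 142 of Hoxd in P13.9, against 7, 31, 10 and 6 in 10 µM T cells. Hoxa7 had 33, 25.4 and 32.3 in P13.9, against 0.565, 0 and 0 in 10 µM T cells.

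Tpsab1, a tryptase of mast cells, had 66, 88.2 and 88.4 in P13.9, against 0.565, 1.03 and 0.766 in 10 µM T cells. Rhox5, a homeobox gene of the X chromosome known from the testis and placenta, had 69.8, 62.2 and 74.2 in P13.9, against 1.69, 1.71 and 1.15 in 10 µM T cells. Lpl, lipoprotein lipase, averaged 93.8 ± 20 in P13.9 and 0.907 ± 0.996 in 10 µM T cells. In each of these genes all 3 P13.9 libraries lay above all 3 of 10 µM T cells, but the filter required it. None of the genes reached the filter's minimum value in a 10 µM T cell library, so all 3 P13.9 libraries had to. The genes were also picked after their values were seen, and groups did not overlap for 72.2% of all tested genes.

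No gene of the sex chromosome list passed the filter. Eif2s3y had 0 reads in P13.9 and 18 in 10 µM T cells, at least 2.6-fold lower with a floor of 3 reads over the group. Ddx3y had 1 read in P13.9 and 22 in 10 µM T cells, and Xist had 1 read in P13.9 and 5 in 10 µM T cells.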
